A study of Mus musculus with 32 samples.

Results

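The mouse Notch receptors (*Notch1*, *Notch2*, *Notch3* and *Notch4*) and their canonical ligands (*Dll1*, *Dll3*, *Dll4*, *Jag1* and *Jag2*) were followed through 11 culture and genotype conditions of embryonic stem cells (ESCs). These are 9 of the 51826 genes in the count table, 4 receptors and 5 ligands. They were taken by their gene symbols, but with earlier results of these data known. All 9 were tested, but *Dll4* was close to 0 throughout. Total RNA had been sequenced from 32 cultures, 3 per condition except Etv5-KO N16h, which has 2.

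All cells carry RGd2, a destabilized GFP reporter of *Rex1* (*Zfp42*) that marks naive ESCs, and RGd2 also names the parental line. Naive ESCs were studied in 2i, a pair of inhibitors of MEK (PD0325901) and GSK3 (CHIR99021, CH or Chiron) in the serum-free medium N2B27. By the paper's methods, lines were routinely grown in Chiron with the cytokine LIF and changed to 2i only shortly before an assay. The reason given is that *Etv5* mutant cells cannot be kept for long with the MEK inhibitor. Parental RGd2 cells were sampled in 2i (RGd2 2i), after 5 passages in 2i (2i-p5), 16 h and 72 h in N2B27 without inhibitors (N16h and N72h), and after 2 passages in Chiron alone (CHp2). RbpJ KO cells (here Rbpj-KO) and *Etv5* KO cells (Etv5-KO) were sampled in 2i and at N16h. Double KO cells lacking *Etv5* and RbpJ (ER-dKO) were sampled after 5 passages in Chiron (CHp5). Triple KO cells lacking *Etv5*, *Tcf3* and RbpJ (ETR-tKO) were sampled after 5 passages in N2B27 without inhibitors (Np5). RBPJ is the DNA-binding partner of the Notch intracellular domain, ETV5 is an ETS factor downstream of ERK, and *Tcf3* (symbol *Tcf7l1*) is a repressor relieved by GSK3 inhibition. Each mutant group holds different clonal lines, of which ETR-tKO replicates 14 and 15 share the parent clone Tc1 in their names and replicate 13 does not, whereas each RGd2 group holds 2 cultures of the parental line and 1 of a clonal derivative. Beyond the clone names nothing states that cultures of a line were independent, so p-values measure the spread between these cultures.

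Notch signaling passes between touching cells. A ligand of the Delta-like or Jagged kind on one cell pulls on a receptor on the next. ADAM proteases and then gamma-secretase cut the receptor, and its intracellular domain enters the nucleus and joins RBPJ and Mastermind to switch on targets such as *Hes1*, *Hey1* and *Nrarp*. Without the intracellular domain RBPJ recruits corepressors. HES and HEY proteins are themselves repressors, and in many embryonic tissues they hold down Delta ligands in cells that receive the signal.

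*Notch1* (ENSMUSG00000026923.15, chromosome 2, 26457903 to 26516663) and *Notch2* (ENSMUSG00000027878.11, chromosome 3, 98013527 to 98150361) are broadly expressed receptors. *Notch3* (ENSMUSG00000038146.7, chromosome 17, 32120820 to 32166880) is best known from vascular smooth muscle and *Notch4* (ENSMUSG00000015468.14, chromosome 17, 34564268 to 34588503) from endothelium. *Dll1* (ENSMUSG00000014773.13, chromosome 17, 15367354 to 15376872) is the Delta ligand of the presomitic mesoderm and of neural progenitors. *Dll3* (ENSMUSG00000003436.11, chromosome 7, 28293553 to 28302238) is a divergent Delta protein that acts inside the signal-sending cell in somite formation. *Dll4* (ENSMUSG00000027314.6, chromosome 2, 119325784 to 119335962) is the Delta ligand of arterial endothelium. *Jag1* (ENSMUSG00000027276.7, chromosome 2, 137081456 to 137116644) and *Jag2* (ENSMUSG00000002799.6, chromosome 12, 112907819 to 112929776) are the Jagged ligands. Coordinates are of the annotated genes in GRCm38. No member shared annotated exons with another gene on its own strand except *Notch2*, with Gm42820, and counting was strand-specific.

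The sequences before the RefSeq starts of *Dll1*, *Jag1* and *Notch4* are shown because the results below turn on these members. They are RefSeq sequences on GRCm38.p6, written 5′ to 3′ on the gene's strand and trimmed to bases outside the annotated gene. Capitals mark the letters CACGCG, which HES repressors bind, or their reverse complement CGCGTG.
*Dll1*, minus strand, chr17:15376933-15377182: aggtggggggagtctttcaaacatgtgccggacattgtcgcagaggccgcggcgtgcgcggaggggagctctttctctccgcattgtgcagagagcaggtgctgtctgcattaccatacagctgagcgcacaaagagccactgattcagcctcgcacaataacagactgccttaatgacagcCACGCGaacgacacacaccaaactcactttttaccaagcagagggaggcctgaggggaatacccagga
*Jag1*, minus strand, chr2:137116645-137116770: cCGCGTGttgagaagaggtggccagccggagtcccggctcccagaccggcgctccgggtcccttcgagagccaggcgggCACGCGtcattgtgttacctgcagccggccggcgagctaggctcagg
*Notch4*, plus strand, chr17:34564045-34564267: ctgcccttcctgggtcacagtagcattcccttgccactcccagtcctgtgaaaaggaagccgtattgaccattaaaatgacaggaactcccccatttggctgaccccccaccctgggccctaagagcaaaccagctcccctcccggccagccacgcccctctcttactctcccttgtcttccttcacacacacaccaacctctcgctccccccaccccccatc
The 250 bases before each RefSeq start were searched on both strands. CACGCG was in 4 of the 10 windows that matched members (*Dll1* has 2), those of *Dll1*, *Dll4*, *Jag1* and *Notch2*. It was in 7.62% of all 32851 windows. This motif was chosen after the sequences had been read. The other motifs searched were TGGGAA (RBPJ), CCGGAAGT (ETS) and CTTTGATC (TCF), found in 21.6%, 2.88% and 0.801% of all windows and in 0 of the 10 member windows. In *Dll1* the match lay 68 to 63 bases before the RefSeq start. In *Jag1* the matches lay 171 to 166 and 249 to 244 bases before the RefSeq start. That start lies inside the annotated *Jag1* gene, so 124 of the 250 bases are left out of the sequence shown. The letters are a description of these windows and nothing about binding follows from them.

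Libraries held 5986857 to 71439411 gene counts (median 29940141), and ERCC spike-ins made up 0.991% to 1.52% of counts. RGd2 2i replicate 33, the clonal derivative and the shallowest library, stood apart, with a chi-square per gene of 44.3 and 43.3 to the other RGd2 2i libraries, which lay 8.43 from each other (sampling noise alone gives about 1). Against RGd2 2i without it, the number of members called was still 6 for RGd2 N16h and 4 for Rbpj-KO 2i, and 4 instead of 5 for Etv5-KO 2i. ETR-tKO replicate 13 lay 24.9 and 29.6 from the other ETR-tKO libraries, which lay 5.18 apart, and without it the counts of members called against 2i-p5 and N72h stayed at 6 and 7. Counts were divided by spike-in size factors to give normalized counts. FPKM is the count divided instead by each library's total gene count and by gene length, and is used wherever members are compared with each other. Levels are also ordered across conditions by FPKM below, and that order can differ on normalized counts. *Notch2*, for example, averaged 10.3 FPKM in Etv5-KO 2i and 9.77 in RGd2 2i, but 2833 and 2980 normalized counts. Of the targeted genes, *Rbpj* had normalized counts of 976 to 1249 in Rbpj-KO 2i against 3981 to 5097 in RGd2 2i, and 2497 to 2797 against 12327 to 12766 at N16h. *Etv5* had 2092 to 2384 in Etv5-KO 2i against 14116 to 16791, and 2734 to 3373 against 11985 to 13157 at N16h. *Tcf7l1* had 29.1 to 120.4 in ETR-tKO and 463 to 592 in RGd2 2i-p5. The lines were cut with paired guide RNAs, so transcripts outside the deleted part are still counted. In the ER-dKO libraries *Rbpj* counts were 1138, 1307 and 3489, and the last, from the library labelled ER-dKO replicate 12, lay above the 2830.2 to 3385 of RGd2 2i-p5, so ER-dKO results are also given without it. In ETR-tKO *Rbpj* counts were 1559, 2281 and 2348, below RGd2 2i-p5 in every library, with a log2 fold change of −0.55, and that of Rbpj-KO 2i against RGd2 2i was −2.02. *Pou5f1* and *Sox2* summed to between 335 and 696 FPKM in every library, and the 5 endothelial markers (*Cdh5*, *Kdr*, *Tek*, *Tie1* and *Emcn*) to at most 3.22 FPKM, with *Emcn* at 0 in every condition.

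Each condition held receptor transcripts. *Notch3* was the most abundant receptor in 21 of 32 libraries and *Notch2* in the other 11, which are those of RGd2 2i, RGd2 N16h, Etv5-KO 2i and Etv5-KO N16h. *Notch2* was the least abundant of the 4 by mean in Rbpj-KO N16h, and *Notch1* exceeded it in ETR-tKO (7.30 ± 0.369 against 5.61 ± 0.137 FPKM, mean ± SD, n = 3 each). The summed receptor level was lowest in RGd2 N16h, 15 ± 1.41 FPKM (mean ± SD, n = 3), and highest in RGd2 N72h, 37.5 ± 0.843 (n = 3). *Notch2* varied 2.31-fold between its highest condition mean (12.1 ± 0.104 FPKM in RGd2 N72h, n = 3) and its lowest (5.26 ± 0.281 in Rbpj-KO N16h, n = 3), and *Notch1* varied 2.49-fold, from 7.33 ± 0.121 in RGd2 N72h to 2.95 ± 0.171 in RGd2 CHp2 (n = 3 each). By mean normalized count, *Notch2* was lowest in RGd2 N16h (1459, with 1492 in Rbpj-KO N16h) and *Notch1* highest in ETR-tKO (2797, with 2471 in RGd2 N72h). *Notch3* varied 5.02-fold, from 3.90 ± 0.627 FPKM in RGd2 N16h (n = 3) to 19.6 ± 0.499 in ETR-tKO (n = 3). *Notch4* varied 40.3-fold. Its mean was 6.5 ± 0.293 FPKM in Rbpj-KO N16h (n = 3) and 0.161 ± 0.0257 in Etv5-KO 2i (n = 3). The 3 conditions in which *Notch4* was lowest, RGd2 CHp2, RGd2 N72h and Etv5-KO 2i, lay at or below 0.428 FPKM in every library, and no library of the other 8 was below 2.27 FPKM.

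The leading ligand also changed with the condition. *Jag1* was the most abundant ligand in 21 of 32 libraries, *Jag2* in the 6 of RGd2 CHp2 and RGd2 N72h, and *Dll1* in the 5 of RGd2 N16h and Etv5-KO N16h. The order of *Dll1* was RGd2 N16h (7.48 ± 1.79 FPKM), RGd2 N72h (4.73 ± 0.441), Etv5-KO N16h (3.42 ± 0.480, n = 2), RGd2 CHp2 (3.14 ± 0.150), and then conditions with means under 1 FPKM. In FPKM, Etv5-KO N16h and RGd2 CHp2 overlapped, while the steps from RGd2 N16h to N72h and from N72h to Etv5-KO N16h separated all libraries. On normalized counts RGd2 N72h (448 to 486) overlapped Etv5-KO N16h (348 to 465), which did not overlap RGd2 CHp2 (317 to 342). The lowest *Dll1* means were 0.0793 ± 0.0155 FPKM in ER-dKO and 0.0491 ± 0.0341 in Rbpj-KO 2i (n = 3 each), which also overlapped. From highest to lowest mean the range was 152-fold for *Dll1*, 11.3-fold for *Jag2*, 10.3-fold for *Jag1* and 7.82-fold for *Dll3*. *Jag1* was highest in ER-dKO, ETR-tKO and Rbpj-KO 2i (9.44 ± 0.740, 7.89 ± 1.26 and 7.47 ± 0.754 FPKM, n = 3 each), neighbours that overlapped in FPKM, and lowest in Etv5-KO N16h (0.921 ± 0.0317, n = 2). For *Jag1* on normalized counts, ER-dKO (1387 to 1591) lay above ETR-tKO (1147 to 1373) without overlap. *Dll3* passed 1 FPKM as a mean only in RGd2 N72h (3.32 ± 0.472, n = 3) and RGd2 CHp2 (2.11 ± 0.464, n = 3). *Dll4* had at most 24 counts in any library and 0 in 15 of 32, and it stayed under 1 FPKM in every condition, so it was never a call and no fold change is given for it. It had 0 counts in every RGd2 2i-p5 library, 5, 4 and 6 in RGd2 CHp2, 0, 7 and 24 in RGd2 N72h and 2, 1 and 0 in ER-dKO. On these few counts CHp2 and N72h differed from 2i-p5 (edgeR adjusted p = 0.0104 and 0.00555) and ER-dKO from CHp2 (edgeR adjusted p = 0.00954).

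**Figure D1:**
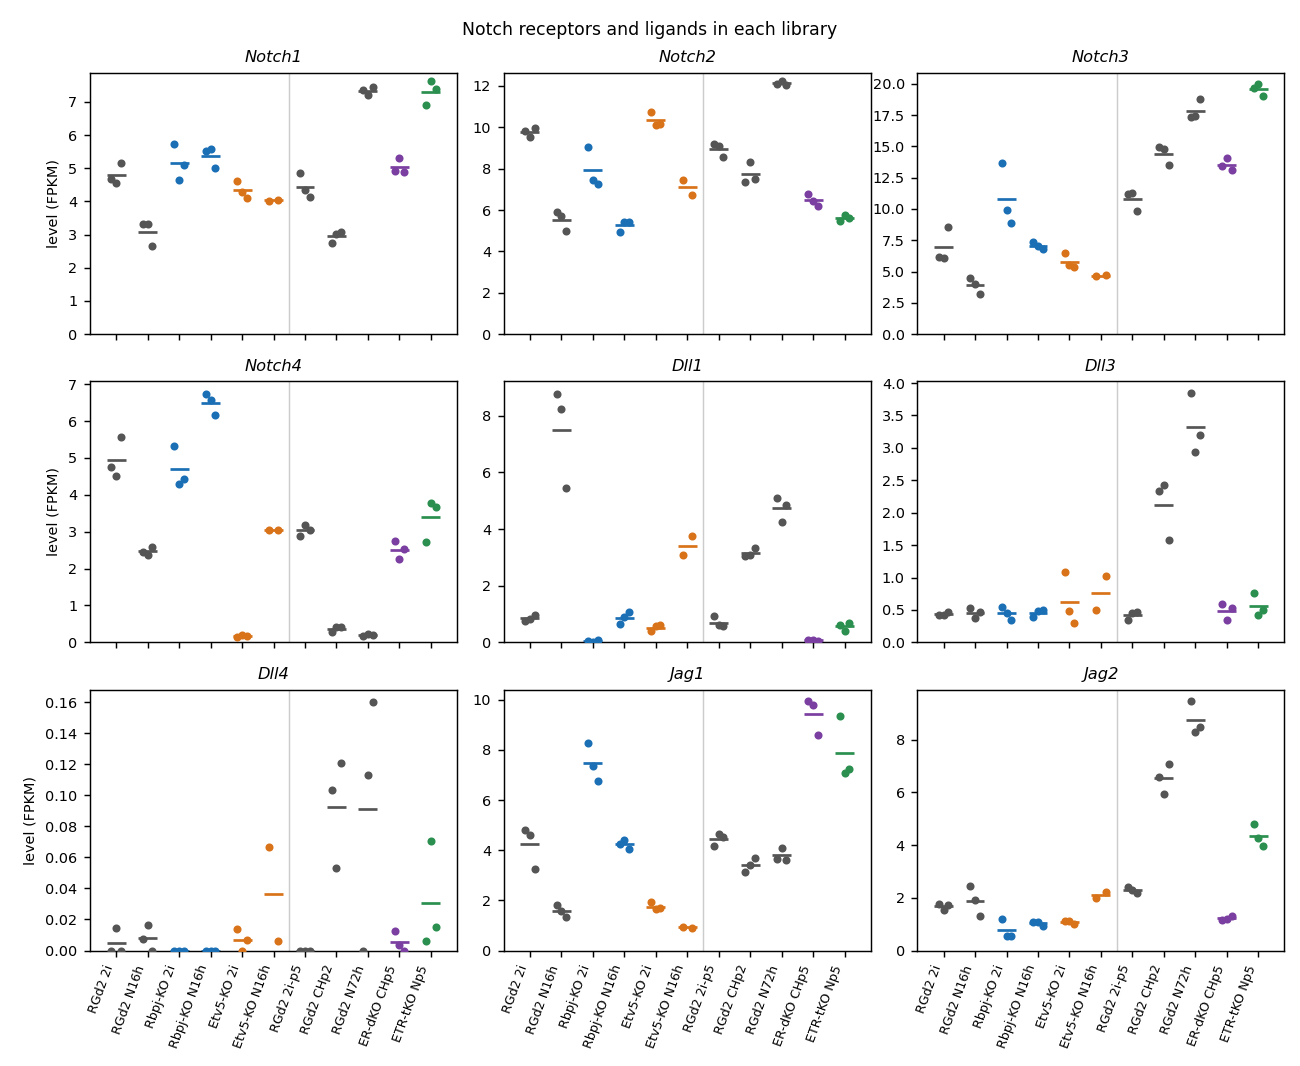
FPKM of each of the 9 Notch receptors and ligands (vertical axes, linear, a separate scale for each gene) in every library of the 11 conditions (horizontal axis). Points are libraries, horizontal lines are condition means, and the vertical line divides the 2i and N16h set with its single mutants from the other cultures; *Dll1* peaks in RGd2 N16h and *Notch4* is near 0 in RGd2 CHp2, RGd2 N72h and Etv5-KO 2i.

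As a share of summed ligand FPKM, *Dll1* made up 11.9% ± 2.58 (mean ± SD, n = 3) in RGd2 2i and 65.3% ± 2.34 (n = 3) in RGd2 N16h. Its share was 0.590% ± 0.470 in Rbpj-KO 2i (n = 3), 13.1% ± 3.30 in Rbpj-KO N16h (n = 3) and 47.1% ± 0.609 in Etv5-KO N16h (n = 2). *Jag1* held 58.4% ± 6.42 of the ligand level in RGd2 2i, 14.1% ± 1.41 in RGd2 N16h and 64.3% ± 2.56 in Rbpj-KO N16h (n = 3 each). At N16h the main ligand transcript was thus *Dll1* in RGd2 and Etv5-KO cells and *Jag1* in Rbpj-KO cells, in all libraries of each. The summed ligand level ran from 3.99 ± 0.515 FPKM in Etv5-KO 2i (n = 3) to 20.7 ± 1.24 in RGd2 N72h (n = 3).

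**Figure D2:**
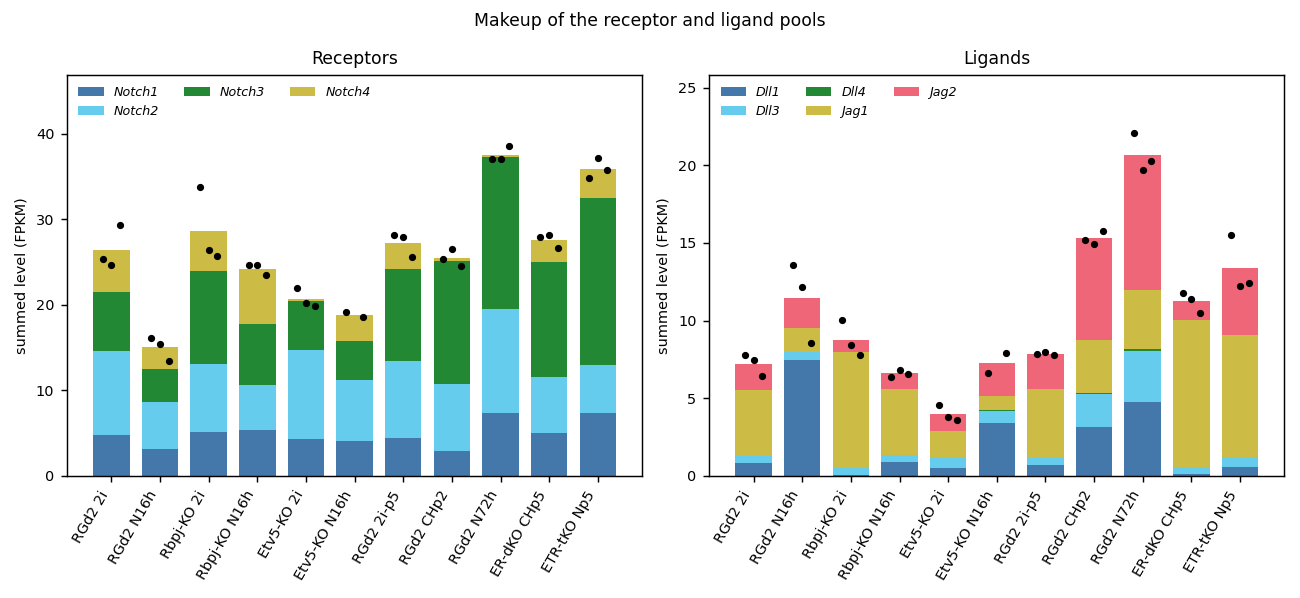
Mean FPKM of the 4 receptors (left panel) and the 5 ligands (right panel) stacked by gene in each of the 11 conditions, with a black point for the sum in each library. *Dll1* fills most of the ligand bar in RGd2 N16h, *Jag1* in Rbpj-KO 2i and ER-dKO, and *Jag2* is the largest part in RGd2 CHp2 and RGd2 N72h.

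The first comparison asked how the members changed in parental cells over the first 16 h after 2i withdrawal. *Dll1* rose, all 4 receptors and *Jag1* fell, and *Jag2* did not pass the test. *Dll1* had normalized counts of 107, 97.0 and 96.9 in RGd2 2i and 929.6, 848 and 542 in RGd2 N16h. The groups were far apart, and within N16h the clonal derivative (replicate 24) was the lowest. The log2 fold change was 2.94 (standard error 0.21, edgeR adjusted p = 1.36e-14), a two-sided quasi-likelihood p corrected by the Benjamini-Hochberg method over all 18892 genes tested, as is every edgeR value below. A gene was called if its adjusted p was under 0.05 and either group averaged 1 FPKM or more. In bulk RNA, fewer cells expressing a gene and less RNA per cell cannot be told apart.

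Among the falling members *Jag1* changed most. Its normalized counts were 929.7, 743 and 460.3 in RGd2 2i and 268, 225 and 185 in RGd2 N16h. The groups did not overlap although the 2i libraries spread widely, and the log2 fold change was −1.69 (standard error 0.16, edgeR adjusted p = 1.51e-11). *Notch4* fell from 1269, 1002 and 1086 to 498, 463 and 493, a log2 fold change of −1.21 (standard error 0.14, edgeR adjusted p = 2.14e-09). *Notch1*, *Notch2* and *Notch3* had log2 fold changes of −0.84, −1.03 and −1.0 (edgeR adjusted p = 1.37e-07, 1.12e-09 and 1.64e-07). For each of the 4 receptors every N16h library lay below every 2i library, but overlap was not counted over all genes. *Jag2* counts were 411, 296 and 291 in RGd2 2i and 426, 329 and 219 in RGd2 N16h, which overlapped, with a log2 fold change of −0.05 (unadjusted 95% interval, as below, −0.42 to 0.32, edgeR adjusted p = 0.869). *Dll3* stayed under 1 FPKM.

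Of the 7 members at 1 FPKM or more, 1 rose and 5 fell, where 46% of all genes (8.63% higher and 37.4% lower) at that level were called. The median log2 fold change of those genes was −0.23, and each falling member lay below it. With TMM scaling, which centers on the gene counts instead of the spike-ins, 48.9% of called genes were higher instead of 18.8%, and the same 6 members were called. Of all 11748 genes, 2209 were then called higher and 2308 lower. The 5 naive markers (*Zfp42*, *Nanog*, *Klf4*, *Esrrb* and *Tfcp2l1*), all above 1 FPKM in both groups, summed to 776 to 819.8 FPKM in RGd2 2i and 337 to 351 in RGd2 N16h. By mean, *Nanog* went from 393 to 82.0 FPKM, *Klf4* from 16.0 to 6.99, *Esrrb* from 114 to 49.0 and *Tfcp2l1* from 95.5 to 19.9. *Zfp42*, the gene of the reporter, did not fall in FPKM and went from 179 to 188. These marker levels are scaled to each library's total gene count, whereas the members' fold changes are scaled to the spike-ins. The part of these markers in the result was not tested.

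Loss of *Rbpj* removes the nuclear partner of Notch, and the comparison with RGd2 in the same medium asked which members differed without it. *Dll1* was lower and *Jag1* higher in Rbpj-KO cells. In 2i, *Dll1* counts were 4.21, 2.69 and 10.1 (2, 3 and 12 raw counts) against 107, 97.0 and 96.9 in RGd2, a log2 fold change of −4.03 (standard error 0.34, edgeR adjusted p = 2.39e-11). Both groups were under 1 FPKM, so this was not a call. At N16h they were 68.5, 95.7 and 126 against 929.6, 848 and 542, and every mutant library lay far below every RGd2 library. The log2 fold change was −3.02 (standard error 0.21, edgeR adjusted p = 4.22e-14). Rbpj-KO *Dll1* at N16h overlapped the level of RGd2 cells in 2i.

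*Jag1* counts were 1359, 1133 and 1074 in Rbpj-KO 2i, above the 929.7, 743 and 460.3 of RGd2 2i in every library, with a log2 fold change of 0.69 (standard error 0.15, edgeR adjusted p = 0.00113). At N16h they were 637, 661 and 650.3 against 268, 225 and 185, a log2 fold change of 1.52 (standard error 0.16, edgeR adjusted p = 9.37e-10). *Jag2* went the other way. Its counts were 236, 102 and 106 in Rbpj-KO 2i and 194, 191 and 179 in Rbpj-KO N16h, and its log2 fold changes against RGd2 were −1.29 (standard error 0.21, edgeR adjusted p = 1.65e-05) in 2i and −0.79 (standard error 0.19, edgeR adjusted p = 0.00262) at N16h. Replicate 28 (clone c28) was higher than the other Rbpj-KO 2i libraries. The N16h call for *Jag2* was lost without RGd2 N16h replicate 22 (−0.55).

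Among the receptors *Notch1*, *Notch3* and *Notch4* were called at N16h and *Notch2* and *Notch3* in 2i. *Notch4* counts were 1209.9, 916 and 972 in Rbpj-KO 2i, which overlapped RGd2 2i, with a log2 fold change of −0.12 (95% interval −0.39 to 0.14, edgeR adjusted p = 0.668). At N16h they were 1395, 1366 and 1369 against 498, 463 and 493, a log2 fold change of 1.51 (standard error 0.14, edgeR adjusted p = 3.68e-11). The mutant libraries were close together and all above the RGd2 libraries. *Notch1* and *Notch3* were also higher at N16h, by 0.90 and 0.96 (edgeR adjusted p = 9.99e-08 and 1.08e-06). *Notch2* was not called there (0.03, 95% interval −0.19 to 0.25, edgeR adjusted p = 0.901). In 2i *Notch3* was higher by 0.62 (edgeR adjusted p = 0.00142) and *Notch2* lower, at −0.36 (edgeR adjusted p = 0.0318). Both calls were lost with only the libraries compared in the fit (0.62 and −0.36) and on leaving out single libraries. *Notch3* lost its call without Rbpj-KO 2i replicate 28 (0.39). *Notch2* lost its call without RGd2 2i replicate 31 (−0.23), Rbpj-KO 2i replicate 29 (−0.30) or Rbpj-KO 2i replicate 30 (−0.30).

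In 2i, 2 members were higher and 2 lower of the 6 at 1 FPKM or more, against a background of 11.4% of all genes (5.24% higher and 6.12% lower). At N16h, 4 were higher and 2 lower of 7, against 22.2% of all genes (18.8% higher and 3.41% lower). Called genes were higher in 46.1% of cases in 2i and 84.6% at N16h with spike-in scaling and in 56.2% and 54.2% with TMM, and the median over all genes at that level was −0.04 and 0.14. The member counts were the same with TMM. Of all genes, 972 were then called higher and 759 lower of 11546 in 2i, and 1275 higher and 1078 lower of 11717 at N16h. The 5 naive markers summed to 487 to 535 FPKM in Rbpj-KO N16h, above RGd2 N16h, with all 5 above 1 FPKM. The 5 primitive endoderm markers (*Gata4*, *Gata6*, *Sox17*, *Sox7* and *Pdgfra*) summed to 0.945 to 7.01 FPKM there (1 of 5 above 1 FPKM, 0 at 0) and to 0.570 to 1.58 in RGd2 N16h (0 of 5). Of the neural markers, *Nes* had means of 16.1 and 1.4 FPKM in Rbpj-KO N16h and RGd2 N16h, and *Tubb3* 11.6 and 15.1. The part of these markers in these differences was not tested.

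Whether the 16 h response itself differed was tested as a difference of the differences. Within Rbpj-KO cells *Notch4* rose by 0.42 (edgeR adjusted p = 0.0173), with N16h over 2i ratios of 1.15 in clone c28, 1.49 in c33 and 1.41 in c36. This call was lost without Rbpj-KO 2i replicate 29 (0.34), Rbpj-KO 2i replicate 30 (0.38) or Rbpj-KO N16h replicate 19 (0.41). The Rbpj-KO response minus the RGd2 response was 1.63 (standard error 0.19, edgeR adjusted p = 3.21e-07) for *Notch4*, 0.85 (standard error 0.16, edgeR adjusted p = 9.72e-04) for *Notch1* and 0.82 (standard error 0.21, edgeR adjusted p = 0.0232) for *Jag1*. *Jag1* fell in both genotypes (−1.69 in RGd2 and −0.87 in Rbpj-KO), and its difference was not called under TMM (0.61), with only the libraries compared (0.81) or without RGd2 2i replicate 31 (0.60), RGd2 N16h replicate 23 (0.81), RGd2 N16h replicate 24 (0.71), Rbpj-KO 2i replicate 29 (0.79), Rbpj-KO 2i replicate 30 (0.75), Rbpj-KO N16h replicate 20 (0.81) or Rbpj-KO N16h replicate 21 (0.82). Without RGd2 2i replicate 33 *Notch2* was called (0.48), and without Rbpj-KO 2i replicate 28 *Jag2* was (0.91). These 3 members were 3 of 7 at 1 FPKM or more, against a background of 4.03% of all genes (3.79% higher and 0.238% lower). With TMM 2 were called, and of all 12162 genes 209 were called higher and 114 lower. Of all called differences 64.7% were then positive instead of 94.1% with spike-in scaling, where the median of all genes was 0.19.

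*Dll1* still rose steeply on withdrawal without *Rbpj*. Its N16h over 2i ratio was 16.3 in clone c28, 35.6 in c33 and 12.5 in c36, with 2i values resting on 2 to 12 raw counts. The log2 fold change was 3.95 (standard error 0.34, edgeR adjusted p = 4.89e-12), under 1 FPKM in both groups, and 2.94 in RGd2. The difference of 1.01 was not called (95% interval 0.14 to 1.88, edgeR adjusted p = 0.251). Within Rbpj-KO cells *Notch2*, *Notch3* and *Jag1* fell and *Notch4* rose, 4 of 6 members at 1 FPKM or more against a background of 27.9% of all genes (11.6% higher and 16.3% lower). *Jag2* was called as well without Rbpj-KO 2i replicate 28 (0.86).

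**Figure D3:**
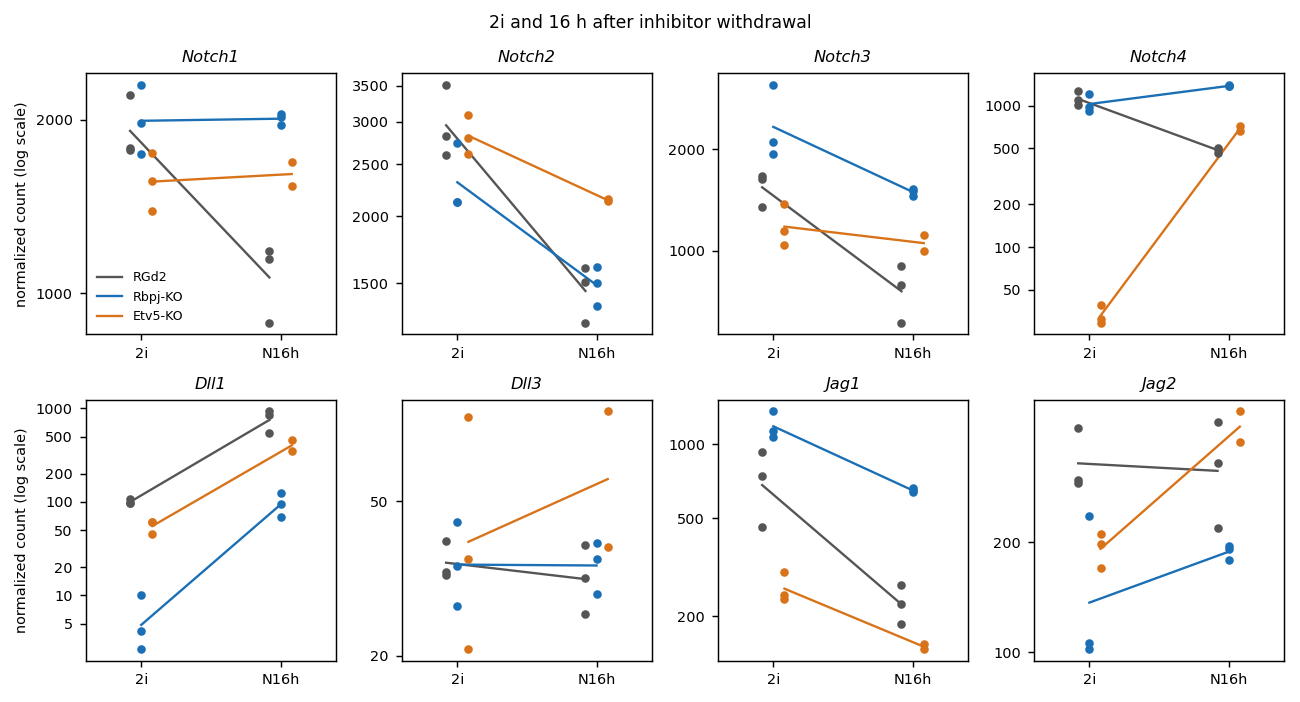
Normalized counts (log axis) of 8 receptors and ligands in 2i and at N16h in RGd2, Rbpj-KO and Etv5-KO cells, *Dll4* left out. Points are libraries and lines join geometric means; *Dll1* climbs in all 3 genotypes from different starting levels, and *Notch4* falls in RGd2, stays high in Rbpj-KO and climbs from 38.8 or less to 656 or more in Etv5-KO.

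In 2i, Etv5-KO cells differed from RGd2 most in *Notch4*. Its normalized counts were 29.3, 38.8 and 30.9 against 1269, 1002 and 1086 in RGd2. No library came near the other group, and the log2 fold change was −5.09 (standard error 0.17, edgeR adjusted p = 7.94e-24). At N16h the counts were 656 and 719.7 against 498, 463 and 493, so the mutant was then the higher, by 0.51 (standard error 0.15, edgeR adjusted p = 0.00984). This small N16h call was lost under TMM (0.27) and without Etv5-KO N16h replicate 18 (0.44). Within the same clone *Notch4* rose 16.9-fold in c17 and 23.3-fold in c1 on withdrawal, a log2 fold change of 4.39 (standard error 0.18, edgeR adjusted p = 3.23e-22) over the group. The Etv5-KO response minus the RGd2 response was 5.60 (standard error 0.23, edgeR adjusted p = 3.82e-21).

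*Jag1* was lower in Etv5-KO cells in 2i, with counts of 302, 245 and 235 against 929.7, 743 and 460.3, groups that did not overlap. The log2 fold change was −1.49 (standard error 0.16, edgeR adjusted p = 8.29e-10). At N16h it was −0.59 (edgeR adjusted p = 0.0138), from counts of 147 and 154 against 268, 225 and 185, and this call was lost without RGd2 N16h replicate 22 (−0.46), Etv5-KO N16h replicate 17 (−0.56) or Etv5-KO N16h replicate 18 (−0.62). *Jag2* was lower in 2i, at 209.7, 198 and 169.6, a log2 fold change of −0.81 (edgeR adjusted p = 0.00142). At N16h it was 376 and 455, inside and above the RGd2 range, and not called (0.35, edgeR adjusted p = 0.215), but without RGd2 N16h replicate 22 (0.59) it was.

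*Dll1* was lower in Etv5-KO cells at N16h. In 2i its counts were 46.0, 60.8 and 60.5, a log2 fold change of −0.85 (standard error 0.23, edgeR adjusted p = 0.00447). Both groups were under 1 FPKM, so this was not a call, and with TMM it was −0.59 (edgeR adjusted p = 0.0535). At N16h they were 348 and 465 against 929.6, 848 and 542, without overlap, and the log2 fold change was −0.93 (standard error 0.21, edgeR adjusted p = 8.19e-04), a call lost without Etv5-KO N16h replicate 17 (−0.74). The rise on withdrawal was 2.87 in Etv5-KO and 2.94 in RGd2, and the difference of −0.08 was not called (95% interval −0.69 to 0.54, edgeR adjusted p = 0.877). *Dll3* was under 1 FPKM in both groups at N16h, but without Etv5-KO N16h replicate 17 (1.42) it passed.

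Receptors other than *Notch4* differed less in Etv5-KO cells, and some of these calls depended on the scaling. In 2i *Notch1* and *Notch3* were lower, at −0.30 and −0.38 (edgeR adjusted p = 0.0457 and 0.0347), where the median of all genes was −0.20. With TMM they were −0.07 and −0.15 and not called. *Notch1* also lost its call without RGd2 2i replicate 31 (−0.18), Etv5-KO 2i replicate 26 (−0.30) or Etv5-KO 2i replicate 27 (−0.22), and *Notch3* without RGd2 2i replicate 31 (−0.33), RGd2 2i replicate 33 (−0.33), Etv5-KO 2i replicate 26 (−0.35) or Etv5-KO 2i replicate 27 (−0.29). At N16h *Notch1*, *Notch2* and *Notch3* were higher by 0.58, 0.55 and 0.46 (edgeR adjusted p = 4.72e-04, 8.08e-04 and 0.0216), where the median of all genes was 0.23. *Notch1* and *Notch2* were called at N16h under each alternative run, at 0.35 and 0.32 with TMM. *Notch3* was not called with TMM (0.22) or without RGd2 N16h replicate 24 (0.32) or Etv5-KO N16h replicate 18 (0.37).

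In 2i, 0 members were higher and 5 lower of the 6 at 1 FPKM or more, against a background of 34% of all genes (6.14% higher and 27.9% lower). With TMM 3 were called, and of all 11569 genes 1799 were called higher and 1315 lower. At N16h, 4 were higher and 2 lower of 7, against 32.5% of all genes (29.3% higher and 3.24% lower). With TMM 4 were called there, and of all 11735 genes 1544 were called higher and 1107 lower. The count at N16h fell to 3 without Etv5-KO N16h replicate 18, which leaves a single mutant library there that is assumed to vary like the other groups. Of all called genes 18.0% in 2i and 90.0% at N16h were higher with spike-in scaling, and 57.8% and 58.2% with TMM. Naive markers summed to 628 to 677 FPKM in Etv5-KO N16h, all 5 above 1 FPKM, and their part was not tested.

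For the change from 2i to N16h within Etv5-KO, 3 members rose (*Notch4*, *Dll1* and *Jag2*) and 2 fell (*Notch2* and *Jag1*) of 7, against 40.7% of all genes (31.3% higher and 9.47% lower), and 76.8% of all called genes were higher (47.3% with TMM, median of all genes 0.19). *Notch2* (−0.40) lost its call without Etv5-KO 2i replicate 25 (−0.34), Etv5-KO N16h replicate 17 (−0.41) or Etv5-KO N16h replicate 18 (−0.40) and with the clonal line as a block (−0.34). With TMM *Notch3* was called, at −0.42. *Jag2* rose by 1.11 (edgeR adjusted p = 2.97e-05). The response differed from that of RGd2 for 6 of 7 members, all positive. Besides *Notch4* these were *Notch1* 0.88, *Notch2* 0.63, *Notch3* 0.83, *Jag1* 0.90 and *Jag2* 1.16 (edgeR adjusted p between 1.64e-04 and 0.00500 for these 5). The median over all genes was 0.44 and the background 37.3% of all genes (36.7% higher and 0.531% lower), with 98.6% of called differences positive (60.5% with TMM). With TMM 2 of the 6 were called, *Notch4* and *Notch1* (0.41), and of all 12246 genes 754 were called higher and 492 lower. Rbpj-KO and Etv5-KO are compared with the same RGd2 libraries.

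In parental cells that had left 2i for longer, *Dll1*, *Dll3* and *Jag2* rose and *Notch4* fell. Both RGd2 N72h and RGd2 CHp2 are compared with the same RGd2 2i-p5 libraries. *Notch4* counts were 507, 618 and 559 in RGd2 2i-p5, 33.2, 45.3 and 40.2 in RGd2 N72h and 61.7, 83.9 and 80.3 in RGd2 CHp2. Both later states were low without overlap, with log2 fold changes of −3.84 (standard error 0.18, edgeR adjusted p = 4.50e-21) at N72h and −2.88 (standard error 0.17, edgeR adjusted p = 6.33e-17) in CHp2. RGd2 2i, in the other set of cultures, had 1002 to 1269, and the sets were not tested against each other.

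*Dll1* counts were 84.8, 60.5 and 55.5 in RGd2 2i-p5, 480.1, 448 and 486 in N72h and 342, 317 and 336 in CHp2. It rose by 2.87 at N72h (edgeR adjusted p = 4.79e-14) and by 2.36 in CHp2 (edgeR adjusted p = 4.34e-11). *Dll3* counts were 21.2, 31.6 and 30.8 in 2i-p5, 245, 209 and 216 in N72h and 179, 168 and 108 in CHp2, and it rose by 2.95 and 2.4 (edgeR adjusted p = 3.18e-09 and 8.06e-07). *Dll3* was low in every 2i-p5 library. *Jag2* counts were 365, 384 and 348 in 2i-p5, 1470.4, 1446 and 1401 in N72h and 1232, 1004 and 1185 in CHp2, rising by 1.98 and 1.64 (edgeR adjusted p = 9.85e-12 and 2.64e-09). Like *Dll1* and *Dll3*, *Jag2* was higher in every N72h and CHp2 library than in any 2i-p5 library. *Jag1* was not called in either (−0.19 and −0.26, edgeR adjusted p = 0.323 and 0.193), although with TMM it was lower in both (−0.31 and −0.44).

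The other receptors moved less. At N72h *Notch1*, *Notch2* and *Notch3* rose by 0.78, 0.49 and 0.77 (edgeR adjusted p = 3.31e-07, 3.84e-04 and 6.64e-06). In CHp2 *Notch1* was lower, at −0.46, and *Notch3* higher, at 0.55 (edgeR adjusted p = 0.00165 and 0.00124), and *Notch2* was called, at −0.26, only with TMM. At N72h, 6 members were higher and 1 lower of 8 at 1 FPKM or more, against 57.1% of all genes (34.2% higher and 22.9% lower), and in CHp2 4 higher and 2 lower of 8, against 42.2% of all genes (28.6% higher and 13.6% lower). Called genes in CHp2 were higher in 67.8% of cases with spike-in scaling and 49.4% with TMM, with a median of 0.12. At N72h naive markers summed to 51.5 to 55.3 FPKM (4 of 5 above 1 FPKM) against 659 to 706 in 2i-p5. *Nes* went from 3.43 to 45.9 FPKM and *Tubb3* from 20.2 to 37.1. Primitive endoderm markers summed to 2.62 to 9.49 FPKM at N72h (2 of 5 above 1 FPKM) against 0.357 to 0.802 (0 of 5), and the 4 fibroblast markers (*Col1a1*, *Col1a2*, *Thy1* and *Twist2*) to 5.66 to 6.52 against 0.364 to 1.16, with *Thy1* alone above 1 FPKM at N72h. In CHp2 the 4 mesendoderm markers (T, *Mixl1*, *Eomes* and *Gsc*) summed to 69.9 to 73.4 (2 of 4 above 1 FPKM, 0 at 0) against 8.84 to 10.1 (2 of 4), of which T went from 5.81 to 69.1 FPKM, *Eomes* from 2.64 to 1.91, *Gsc* from 0.565 to 0.0548 and *Mixl1* stayed under 1 FPKM. Naive markers summed there to 252 to 285. The part of these markers' cells in the ligand levels was not tested.

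ER-dKO cells in Chiron and ETR-tKO cells in N2B27 were each compared with parental cells in 2i-p5 and with parental cells in the matching medium, at another passage or time. These are the same RGd2 libraries as above. In ER-dKO, *Dll1* was close to 0, with counts of 10.7, 9.35 and 7.29 against 84.8, 60.5 and 55.5 in 2i-p5 and 342, 317 and 336 in RGd2 CHp2. All 3 libraries were far below both controls. The log2 fold change was −2.79 (standard error 0.30, edgeR adjusted p = 9.83e-10) against 2i-p5, under 1 FPKM, and −5.15 (standard error 0.26, edgeR adjusted p = 3.51e-19) against CHp2. Without the library labelled ER-dKO replicate 12 these were −2.69 and −5.05.

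*Jag1* counts in ER-dKO were 1591, 1523 and 1387 against 528, 651 and 600.3 in 2i-p5 and 487, 484 and 518 in CHp2, higher in every library, by 1.33 (standard error 0.15, edgeR adjusted p = 3.31e-09) and 1.60 (standard error 0.15, edgeR adjusted p = 2.16e-11). Without replicate 12 the values were 1.39 and 1.65. *Jag2* was 221, 221 and 254, lower than either control, with log2 fold changes of −0.66 against 2i-p5 (edgeR adjusted p = 0.00599) and −2.30 against CHp2 (edgeR adjusted p = 2.46e-13), and without replicate 12 of −0.73 and −2.37. *Notch4* was 609, 489 and 563, overlapping 2i-p5 (−0.03, 95% interval −0.30 to 0.24, edgeR adjusted p = 0.904) and far above CHp2, with a log2 fold change of 2.85 (standard error 0.17, edgeR adjusted p = 2.92e-17). Without replicate 12 that was 2.84. The ER-dKO cells in Chiron thus had *Notch4* near the 2i level and *Dll1* below it.

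Against 2i-p5, *Notch1* and *Notch3* were also higher in ER-dKO (0.44 and 0.58, edgeR adjusted p = 0.00262 and 7.97e-04). Against CHp2, *Notch1* was higher by 0.90 and *Dll3* lower, at −2.02 (edgeR adjusted p = 2.44e-08 and 1.75e-06). Of 6 members at 1 FPKM or more, 3 were higher and 1 lower than in 2i-p5, against 42.4% of all genes (33.9% higher and 8.43% lower), and of 8, 3 were higher and 3 lower than in CHp2, against 49.7% of all genes (28.3% higher and 21.3% lower). Both counts were the same without replicate 12. In the first comparison 80.1% of called genes were higher, 55.2% with TMM, and the median was 0.21. With TMM *Notch2* was called as well, at −0.38.

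In ETR-tKO cells *Dll1* overlapped the parental 2i level. Its counts were 66.2, 48.4 and 78.0 against 84.8, 60.5 and 55.5 in 2i-p5 and 480.1, 448 and 486 in RGd2 N72h. The log2 fold change was 0.01 against 2i-p5 (95% interval −0.47 to 0.48, edgeR adjusted p = 0.991) and −2.86 (standard error 0.21, edgeR adjusted p = 7.98e-15) against N72h. *Jag1* was 1373, 1147 and 1165, higher than 2i-p5 by 1.05 (standard error 0.15, edgeR adjusted p = 3.99e-07) and than N72h by 1.23 (standard error 0.15, edgeR adjusted p = 4.84e-09). *Jag2* was 845, 824 and 760.2, between the 348 to 384 of 2i-p5 and the 1401 to 1470.4 of N72h without overlap, with log2 fold changes of 1.15 and −0.83 (edgeR adjusted p = 3.52e-06 and 1.21e-04). Naive markers summed to 699 to 763 FPKM in ETR-tKO (5 of 5 above 1 FPKM) and the neural marker *Tubb3* was at 57.7 against 20.2 in 2i-p5, and their part was not tested.

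Among receptors in ETR-tKO, *Notch4* was 553, 848 and 819, with replicate 13 below the other libraries (0.56 against 2i-p5 without it), and far above N72h, with a log2 fold change of 4.23 (standard error 0.18, edgeR adjusted p = 1.27e-22). Against 2i-p5 it was 0.39 (edgeR adjusted p = 0.0222), a call lost with TMM (0.16) and without RGd2 2i-p5 replicate 1 (0.33), RGd2 2i-p5 replicate 3 (0.38), ETR-tKO Np5 replicate 14 (0.28) or ETR-tKO Np5 replicate 15 (0.31). *Notch3* and *Notch1* were higher than in 2i-p5 by 1.09 and 0.95 and *Notch2* lower, at −0.44 (edgeR adjusted p = 1.90e-08, 8.84e-09 and 0.00193). *Notch3* had counts of 3993, 4468 and 4221, above those of every other condition. Against N72h *Notch2* was lower, at −0.93, as was *Dll3*, at −2.37 (edgeR adjusted p = 5.22e-09 and 4.28e-08). *Notch3* was called against N72h (0.31, edgeR adjusted p = 0.0466), but not with TMM (0.22) or without RGd2 N72h replicate 7 (0.25), RGd2 N72h replicate 8 (0.33), RGd2 N72h replicate 9 (0.35), ETR-tKO Np5 replicate 14 (0.27) or ETR-tKO Np5 replicate 15 (0.31). Of 6 members at 1 FPKM or more, 5 were higher and 1 lower than in 2i-p5, against 47.3% of all genes (37.7% higher and 9.53% lower), and of 8, 3 were higher and 4 lower than in N72h, against 59.1% of all genes (35.5% higher and 23.6% lower). For 2i-p5 79.8% of called genes were higher, 54.2% with TMM, with a median of 0.23.

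**Figure D4:**
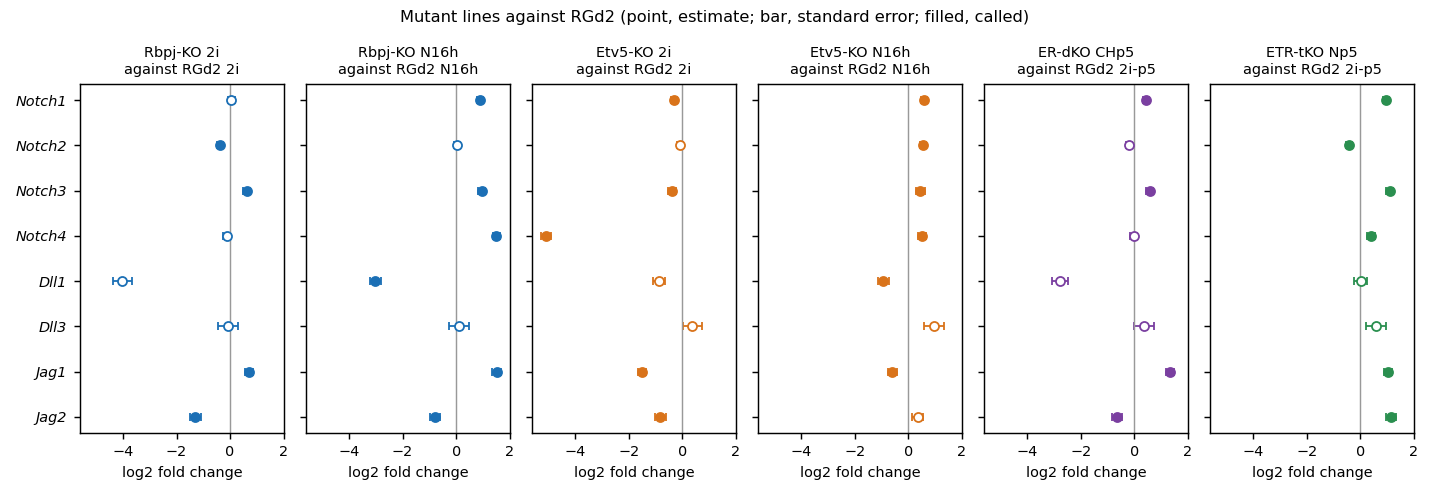
Log2 fold change with its standard error of 8 receptors and ligands in Rbpj-KO and Etv5-KO cells (2i and N16h, against RGd2 in the same medium) and in ER-dKO and ETR-tKO cells (against RGd2 2i-p5). Filled points were called and open points were not; *Dll1* lies below 0 in each comparison except ETR-tKO, and *Jag1* lies above 0 in Rbpj-KO, ER-dKO and ETR-tKO and below 0 in Etv5-KO.

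The canonical Notch targets were taken from a list of 62 other pathway genes in 8 roles. *Hes1*, a repressor at the end of the pathway, had normalized counts of 482, 359.8 and 646 in RGd2 2i and 78.4, 69.99 and 94.1 in RGd2 N16h. It was low in every N16h library, with a log2 fold change of −2.58 (standard error 0.16, edgeR adjusted p = 2.06e-16). *Hes1* was 345 to 370 in RGd2 N72h and 348 to 387 in RGd2 CHp2, against 362 to 452 in 2i-p5. *Dll1* was above its 2i-p5 level in both. A link between *Hes1* and *Dll1* was not tested. In Rbpj-KO cells *Hes1* was 1058, 833 and 919.6 in 2i and 625, 590.3 and 588 at N16h. These values lay above every RGd2 library in the same medium, by 0.96 and 2.91 (edgeR adjusted p = 5.10e-06 and 2.65e-17). *Hey1*, a related repressor, was 8.87, 6.79 and 9.21 in RGd2 N16h and 167, 172 and 188 in Rbpj-KO N16h, higher by 4.42 (edgeR adjusted p = 1.24e-16). *Nrarp*, a feedback inhibitor of the Notch complex, was 12.6, 14.1 and 19.4 in RGd2 N16h and 388, 322 and 409 in Rbpj-KO N16h, higher by 4.63 (edgeR adjusted p = 1.92e-18). All 3 targets above 1 FPKM were higher in *Rbpj* mutant cells, in 2i, at N16h, in ER-dKO and in ETR-tKO. Against 2i-p5 their log2 fold changes were 0.71, 1.42 and 2.82 in ER-dKO and 0.39, 1.08 and 3.05 in ETR-tKO, in the order *Hes1*, *Hey1*, *Nrarp*, and with TMM *Hes1* was not called in ETR-tKO. *Hes5*, *Hes7*, *Hey2* and *Heyl* were under 1 FPKM in every condition.

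Over the 62 genes, 4 rose and 17 fell of 42 at 1 FPKM or more on withdrawal of RGd2 cells, against a background of 46% of all genes (8.63% higher and 37.4% lower), with a median of −0.26 beside −0.23 over all genes. *Rbpj* itself rose by 1.49 and *Dtx4*, a Deltex ubiquitin ligase, by 2.07. *Neurl1a*, which helps ligand endocytosis, fell by 1.34, and 5 of 7 cleavage genes fell (3 with TMM), led by *Furin* (−0.96), the protease that matures the receptor, and *Ncstn* (−0.62), a gamma-secretase subunit. Of 3 glycosylation genes 2 fell, *Pofut1* (−0.67) and *Poglut1* (−0.45), which add O-linked sugars to receptors. In Rbpj-KO N16h against RGd2 N16h, 15 were higher and 5 lower of 44, against 22.2% of all genes (18.8% higher and 3.41% lower), with a median of 0.18 beside 0.14. Apart from the targets these included *Spen* (1.18), an RBPJ corepressor, *Dtx1* (1.05) and *Dtx4* (−1.03), and *Rbpj* itself was the targeted gene.

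**Figure D5:**
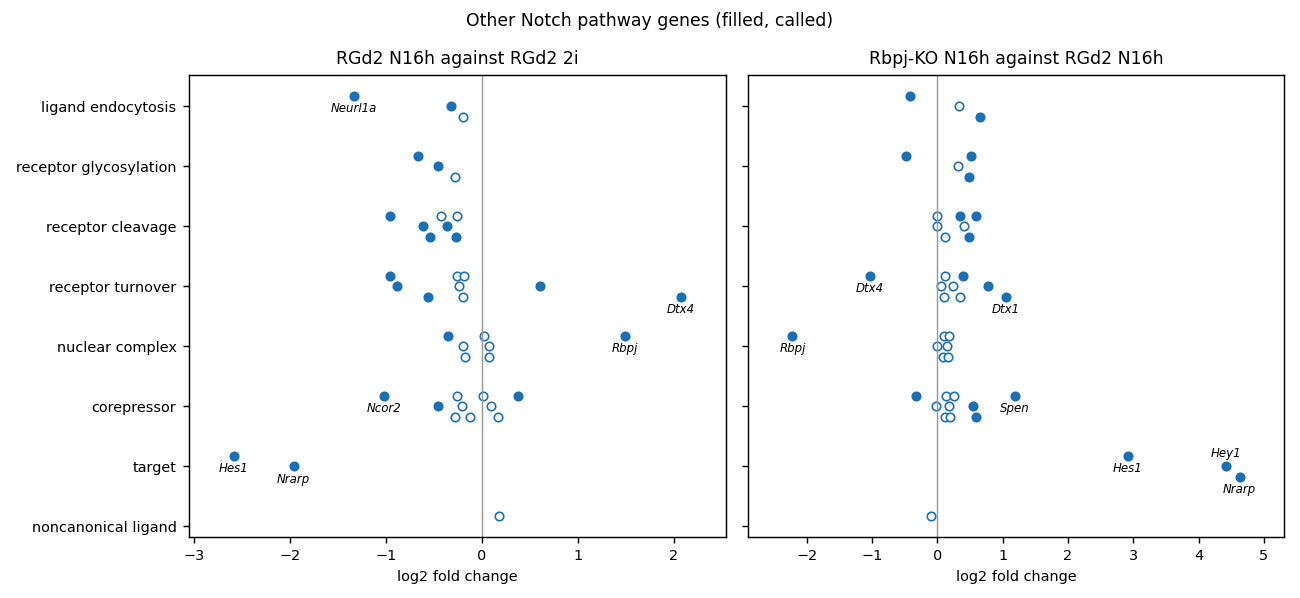
Log2 fold change of the other Notch pathway genes at 1 FPKM or more, ordered by role, for RGd2 N16h against RGd2 2i and for Rbpj-KO N16h against RGd2 N16h. Filled points were called, open points were not, and called genes with a change of at least 1 are labelled; *Hes1* and *Nrarp* lie below 0 in the first comparison and all 3 targets lie above 0 in the second.

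*Lfng*, a Fringe enzyme that sets which ligands a receptor answers to, rose by 3.88 at N72h and 2.23 in CHp2 and was lower in ER-dKO than in CHp2, at −1.91 (edgeR adjusted p = 9.30e-12, 1.16e-05 and 1.01e-05). Of the 5 glycosylation genes 2 were higher and 1 lower at N72h, and 2 higher and 0 lower in CHp2. *Dtx4* rose by 4.35 and 3.17 (edgeR adjusted p = 3.05e-18 and 1.28e-13). Of the other pathway genes 16 rose and 11 fell of 46 at N72h, against 57.1% of all genes (34.2% higher and 22.9% lower), and 11 rose and 3 fell of 46 in CHp2, against 42.2% of all genes (28.6% higher and 13.6% lower). In Etv5-KO cells 2 were higher and 18 lower of 43 in 2i, against 34% of all genes (6.14% higher and 27.9% lower), and 15 higher and 1 lower of 43 at N16h, against 32.5% of all genes (29.3% higher and 3.24% lower). In ER-dKO 23 were higher and 2 lower of 43 against 2i-p5, beside 42.4% of all genes (33.9% higher and 8.43% lower), and in ETR-tKO 22 and 3 of 44, beside 47.3% of all genes (37.7% higher and 9.53% lower). As given above, the share of higher calls in both fell with TMM. *Spen* was higher in both, by 1.43 and 1.26 (edgeR adjusted p = 2.32e-10 and 2.75e-09).

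For each member above 1 FPKM, the genes with the most similar pattern were those with the highest Pearson correlation of condition means of log2(FPKM + 1) over the 11 conditions, among 5636 candidate genes. For *Dll1* they were *Larp1b*, *Ctbp2* and *Insm1* (r = 0.965, 0.942 and 0.922). For *Jag1* they were *Paqr8*, *Gm23569* and *Fut9* (r = 0.919, 0.874 and 0.858), and for *Jag2* *Syt7*, *Crip2* and *Gpr153* (r = 0.971, 0.965 and 0.959). For *Notch4* they were *Camk1d*, *Msantd3* and *Chchd10* (r = 0.933, 0.911 and 0.892), and for *Notch3* *Gas6*, *Ppp1r26* and *Slc27a3* (r = 0.942, 0.939 and 0.927). *Notch1* was closest to *Map6*, *Atp1b1* and *Thra* (r = 0.889, 0.887 and 0.881), *Notch2* to *Dusp7*, *Lgi2* and *Ly6e* (r = 0.945, 0.938 and 0.937) and *Dll3* to *Kcnip3*, *Adssl1* and *Selenon* (r = 0.992, 0.991 and 0.988). The points share libraries and conditions, and the values are descriptions chosen as the highest of many.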

How the data were processed

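The authors removed ribosomal RNA from total RNA and built directional paired-end libraries with ERCC spike-ins. They trimmed reads with Trim Galore (reads under 20 nt dropped), aligned them to GRCm38/mm10 plus the spike-in sequences with TopHat2 and Gencode M14 models, and deposited raw counts of unique primary alignments per gene and per spike-in from featureCounts. Tool versions are not given in the sources used here. The labels name the molecule polyA RNA, whereas the methods describe ribosomal depletion, which governs how unspliced and non-polyadenylated RNA enters the counts. Members and gene lists were chosen with earlier results of these data known. Conditions came from the labels, by which Etv5-KO N16h has 2 libraries; the methods assign 2 to RGd2 N16h, and this was not resolved.

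Size factors were medians of ratios over the 52 of 92 spike-ins above 0 in all libraries. All 32 libraries entered a single edgeR 4.0.16 quasi-likelihood model (R 4.3.3) with a coefficient per condition. Genes passing filterByExpr (18892) were tested and p-values adjusted together; a call also needed 1 FPKM. FPKM used the deposited gene lengths and each library's total gene count. Intervals are unadjusted, 1.96 standard errors on either side. The N16h responses of mutant and RGd2 cells were compared as a contrast of contrasts. Every member is named in each comparison where it was called, and members that were not called are not all given. Other pathway genes are named when called with the largest changes of their role (up to 3 per role). For likeness the 3 genes with the highest correlation are named. They come from genes at 1 FPKM or more whose condition means span at least 1 on the log2(FPKM + 1) scale. IDs without a symbol numbered 193 and held 0.0259% of the counts. Replicate counts differed by more than sampling noise in every pair (chi-square per gene 3.39 to 44.3), most of all between RGd2 2i replicate 33, the shallowest library, and the others of its group. The steps were tested on simulated data. The alternatives were TMM, gene-count size factors, DESeq2 1.42.0, no filter on low counts, no FPKM minimum, only the libraries compared, the clonal line as replicate block and leaving out each library. The labels give the same clones in 2i and N16h, which pairs those samples; same-clone libraries correlated in their deviations by 0.052 to 0.21 in RGd2, 0.00863 to 0.0849 in Rbpj-KO and −0.0284 in Etv5-KO over 11596 genes. Figures used Python 3.11.15 and matplotlib 3.10.9. ChIP-seq was not analysed here.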

Additional observations from a re-analysis of the deposited data

Results flagged for a closer look

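Responses to 2i withdrawal that differed between genotypes, by the test of the difference itself, are listed as the mutant's log2 change from 2i to N16h minus that of RGd2. In Rbpj-KO the difference was 1.63 for *Notch4* (edgeR adjusted p = 3.21e-07), which was lower in every RGd2 N16h library than in any RGd2 2i library and was 1.15 to 1.49 times its 2i level in the 3 Rbpj-KO clones. It was 0.85 for *Notch1* (edgeR adjusted p = 9.72e-04) and 0.82 for *Jag1* (edgeR adjusted p = 0.0232), the latter a smaller fall and not a rise, and lost with TMM (0.61), with only the libraries compared and on leaving out any of 7 libraries.

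In Etv5-KO the difference was 5.60 for *Notch4* (edgeR adjusted p = 3.82e-21), from 29.3, 38.8 and 30.9 normalized counts in 2i to 656 and 719.7 at N16h. It was 1.16 for *Jag2*, 0.90 for *Jag1*, 0.88 for *Notch1*, 0.83 for *Notch3* and 0.63 for *Notch2* (edgeR adjusted p = 0.00200, 0.00476, 1.64e-04, 0.00237 and 0.00500). With TMM only *Notch4* and *Notch1* of these 6 were called, and of all 12246 genes 754 were called higher and 492 lower. The median over all genes was 0.44 for this difference and 0.19 for that of Rbpj-KO. Both differences use the same RGd2 libraries.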

How the results depend on the processing

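Of 1731 recomputed member values, 1567 kept their direction and their side of the threshold, 67 that were not called changed sign and stayed uncalled, 71 lost a call, 26 gained one and 0 called values changed sign. The number of members called moved by more than 1.5 times in 4 comparisons. For Rbpj-KO 2i against RGd2 2i it was 4 and fell to 2 with only the libraries compared. For Etv5-KO 2i against RGd2 2i it was 5 and fell to 3 with TMM, with gene-count size factors and with only the libraries compared, and it ran from 3 to 5 when single libraries were left out, 3 without RGd2 2i replicate 31 or Etv5-KO 2i replicate 26 or 27. For Etv5-KO N16h against RGd2 N16h it was 6 and ran from 3 to 6 on leaving out libraries, 3 without Etv5-KO N16h replicate 18. For the response of Etv5-KO minus that of RGd2 it was 6 and fell to 2 with TMM and with gene-count size factors. Fits of only the libraries compared use fewer samples; other causes were not tested.

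With the clonal line as replicate block, *Notch2* in Etv5-KO N16h against 2i went from −0.40 to −0.34 and lost its call; the pairing changed no other member's call. DESeq2 gave the same counts of members called in all 15 comparisons. Depth limits *Dll4* in all groups, *Dll3* outside RGd2 N72h and CHp2, and *Dll1* in Rbpj-KO 2i, where counts were 2, 3 and 12. Groups of 2 or 3 libraries leave small differences open to single libraries, as named beside each result.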
